A study of Homo sapiens with 7 samples.

Results

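FOXA1 binding sites shared by 2 human prostate cancer lines were examined where a peak was missing after knockdown of SETD7. The peaks of the 6 FOXA1 lists of the series, on chromosomes 1 to 22 and X, were joined into 172239 union sites wherever peaks shared at least 1 bp. Of these sites, 23024 held a peak in vehicle 22Rv1 cells, in 22Rv1 cells with a control hairpin and in all 3 LNCaP lists. The sites described here are the 7851 of these 23024 that had no peak within 1 kb in 22Rv1 cells carrying a hairpin against SETD7. They were set against the 14531 core sites, which met the same conditions and also overlapped a peak of the knockdown cells. Another 642 sites had a knockdown peak within 1 kb but none overlapping and belong to neither class. The sites were selected on the presence of a peak in 5 lists and its absence from the sixth, so the absence itself is a description and carries no test.

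The data are chromatin immunoprecipitation sequencing peak lists on build hg19 with 1 library per group, from cells crosslinked with 1% formaldehyde. In 22Rv1 (CWR22-Rv1 in the labels), FOXA1 was mapped in cells expressing shSETD7, in cells expressing shCTL, named shNTC in the series text, and in vehicle cells (Veh). The LNCaP lists are of FOXA1 after 4 hours with the LSD1 inhibitor GSK2879552, with GSK2879552 plus the SETD7 inhibitor PFI-2, or with DMSO. The title of the combination sample names both inhibitors, while its treatment label leaves the addition of PFI-2 undecided, so the combination is used here as titled. SETD7 itself was mapped in vehicle 22Rv1 cells only. Neither the number of clones behind each hairpin line nor the SETD7 level after knockdown is given in the sources used here. The vehicle FOXA1 list is used as labelled, although each of its 65461 peaks is named with siNTC, a word absent from its labels. Peak lists do not give the read depth, on which the number of called peaks depends. With 1 library per group, no difference between conditions could be tested. Intervals below are 95% intervals for counting error over sites, which are neither replicates nor independent of each other.

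FOXA1 is a forkhead pioneer transcription factor that binds its sites in closed chromatin and opens them for other factors. In prostate cells it is best known for guiding the androgen receptor to enhancers. SETD7 adds a methyl group to lysines of histone H3 and of other proteins, and the title of the series names FOXA1 as one of them. LSD1 removes methyl groups from lysines and is known to act on FOXA1 as well as on histones. The GSK2879552 and PFI-2 libraries therefore used inhibitors of an enzyme that removes and of an enzyme that adds lysine methyl groups. No library had PFI-2 alone, and whether both enzymes act on the same lysine was not examined.

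The shSETD7 list was missing at shared sites far more often than any other FOXA1 list. Of the 23024 sites of the other 5 lists, 34.1% lacked an shSETD7 peak within 1 kb (33.5 to 34.7). Turning the question round, the vehicle list was missing at 2285 of the 16967 sites of its other 5 lists, or 13.5% (13.0 to 14.0). The shCTL list was missing at 4.35% (4.04 to 4.69). In LNCaP the GSK2879552 list was missing at 5.47% (5.13 to 5.84), the GSK2879552 plus PFI-2 list at 2.74% (2.49 to 3.01) and the DMSO list at 3.92% (3.62 to 4.24). These 6 shares were made from the same lists and have the same 14531 core sites in common. The shSETD7 share alone was taken over sites not chosen for an shSETD7 peak, so the sets of sites behind the shares differ. The shSETD7 share was below that of shCTL sites in general, since 51.7% of all 83310 union sites with an shCTL peak, and 38.8% of the 42854 with an shCTL and a vehicle peak, had no shSETD7 peak within 1 kb. Shortening every list by score to the length of the shortest left 33.1% for shSETD7 and 11.3% for vehicle.

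**Figure D1:**
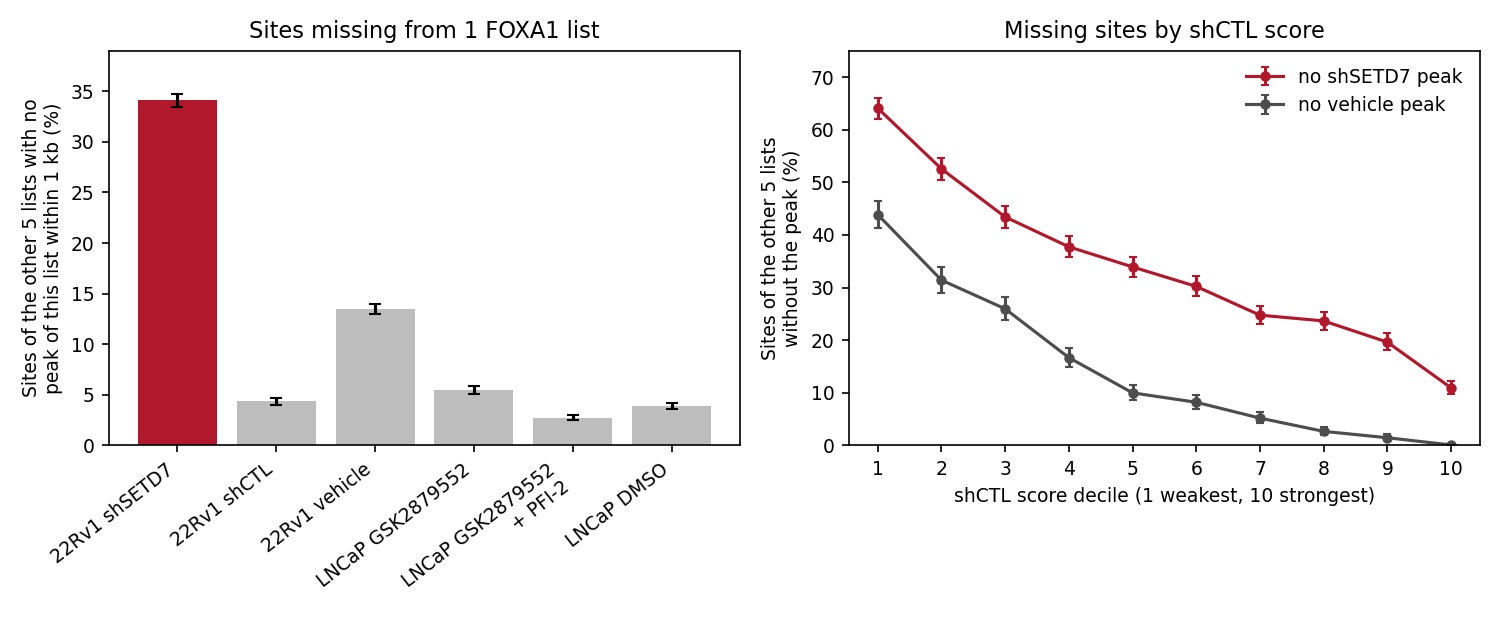
Left, the share of sites present in the other 5 FOXA1 lists with no peak of the named list within 1 kb, in percent, with 95% Wilson intervals; shSETD7 stands at 34.1% and the other lists between 2.74% and 13.5%. Right, the share without an shSETD7 peak and the share without a vehicle peak by shCTL score, divided at the same scores for both; the first is higher in every decile, with 10.9% against 0.0996% in decile 10.

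Weak sites were missing most often, but strong sites were missing too. The score is the authors' own whole number per peak, used here only to order peaks within a list. In the lowest decile of shCTL scores among the 23024 sites, 64.1% lacked an shSETD7 peak (62.1 to 66.0), and in the highest decile 10.9% did (9.74 to 12.3), or 252 of 2302 sites. For the vehicle list, with its 16967 sites divided at the same shCTL scores, the share was 43.9% in the lowest decile and 0.0996% in the highest (0.0273 to 0.362), or 2 of 2009 sites. The 3 lowest deciles held 46.9% of the sites missing from shSETD7 and 67.3% of those missing from vehicle. The 5 highest deciles held 32.0% and 13.5% of them in that order. The 7851 sites had shCTL scores from 17 to 14511 with a median of 263, against a median of 601 at core sites. Of the 2067 sites with a percentile above 90 in all 5 lists at once, 255 lacked an shSETD7 peak, or 12.3% (11.0 to 13.8). With a percentile above 95 in all 5 lists there were 84 such sites of 953.

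The 10 sites with the highest shCTL scores are examples of absence at strong shCTL peaks, picked for that score. Only peak calls were available, so the shSETD7 signal at these sites was not examined. The strongest, on chromosome 1 from 248618252 to 248618812, scored 14511 in shCTL cells and 477 in vehicle cells. The same site scored 932 with GSK2879552, 1450 with GSK2879552 plus PFI-2 and 1144 with DMSO in LNCaP. Its percentile within each of the 5 lists was between 93.0 and 99.96, and the nearest shSETD7 peak lay 8309 bp away. A site on chromosome 4 from 176011177 to 176011681 scored 8665 in shCTL and 1115 in vehicle cells, and 1474, 2327 and 1974 with GSK2879552, with the combination and with DMSO in LNCaP. Its nearest shSETD7 peak was 69666 bp away. A site on chromosome 21 from 28698341 to 28699090 scored 8521 in shCTL and 2177 in vehicle cells, and 1465, 2179 and 1763 in the same 3 LNCaP lists. Its percentiles were between 98.6 and 99.85, so it was among the strongest sites of every list that held it. The site on chromosome 14 from 36677843 to 36678376 scored 7093 in shCTL and 1274 in vehicle cells, and 1929, 2396 and 2014 in the LNCaP lists. Not all of the 10 were strong throughout. On chromosome 12 from 59762067 to 59762653 the shCTL score was 7721, while the vehicle score of 54 was below the median of its list and the LNCaP scores were 285, 371 and 241 in that order.

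The sites strongest in LNCaP were not always strong in 22Rv1. The highest DMSO score among the 7851 sites was on chromosome 10 from 110481526 to 110482254, with 2209 with GSK2879552, 3347 with the combination and 3181 with DMSO. This site scored 837 in shCTL and 1140 in vehicle cells, at the 89.4th and 98.6th percentiles of those lists. It was thus strong in 22Rv1 too, and no shSETD7 peak was found within 405858 bp of it. The site on chromosome 4 from 54321842 to 54322484 was near the top of both lines, with 7008 in shCTL, 1928 in vehicle, 2362 with GSK2879552, 2885 with the combination and 2884 with DMSO. On chromosome 8 from 142978296 to 142978885 the LNCaP scores were 2403, 2993 and 2696 in the same order, while shCTL scored 111 and vehicle 60, below the median of each list. A second site on chromosome 8, from 117651914 to 117652588, and one on chromosome 15, from 99154960 to 99155497, had DMSO scores of 2777 and 2535. The site on chromosome 8 stood at the 65.5th percentile of the shCTL list and the 85.5th of the vehicle list. The site on chromosome 15 stood near the middle of both, at the 53.8th and 45.0th.

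By the choice of sites, the nearest shSETD7 peak was beyond 1 kb at all of them. Its distance is a description, and the spacing to be expected was not computed. This peak lay at a median of 14.7 kb, with the middle 50% of sites between 6.25 and 32.9 kb, and 499 of the 7851 sites had one within 2 kb. Just outside the limit, the site on chromosome 10 from 42527571 to 42528288 had its nearest shSETD7 peak 1001 bp away, with 336 in shCTL and 483 in vehicle cells. Just inside, 2 sites had it 999 bp away, on chromosome 7 from 116676393 to 116676762 with an shCTL score of 116 and on chromosome 13 from 107182650 to 107182992 with 331. The 266 sites with a gap of 1000 to 1500 bp had a median shCTL score of 284, and the 309 with a gap of 500 to 1000 bp had 318. The sites were mostly single peaks, with a median width of 473 bp and exactly 1 peak of each of the 5 lists at 7567 of them. Core sites had a median width of 530 bp, but they also take in an shSETD7 peak. Other shared sites were about as close as around core sites. Within 100 kb on either side they had a mean of 2.09 other sites of the 5 lists, against 2.08 around core sites of matched shCTL score, with an interval of −0.04 to 0.06 for the difference.

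SETD7 peaks of vehicle cells, which the choice of sites did not use, were rare at these sites. Of the 7851 sites, 57 overlapped a SETD7 peak, or 0.726% (0.561 to 0.939), against 2.80% of all union FOXA1 sites. Core sites weighted to the same shCTL score deciles overlapped one in 2.44% of cases (2.12 to 2.75), a difference of −1.71 percentage points (−2.08 to −1.34). The share was lower than at core sites in all 10 deciles, but on 5 of 23 chromosomes it was higher than at matched core sites. In the 2 highest deciles none of 704 sites overlapped a SETD7 peak, against 55 of 1809 and 84 of 2008 core sites. With 704 sites, finding none allows for a share as high as 0.426% if 3 sites are taken as the limit, and 0.543% as the upper end of the Wilson interval used for the other shares. The 2285 sites missing only from the vehicle list also overlapped SETD7 less often than their matched core sites, at 0.963% against 2.36%. Chromosomes 1, 3, 7, 8 and 12 held 70.2% of the SETD7 peaks and 38.1% of the union FOXA1 sites, and without them the difference was −0.86 points. With each shCTL peak taken as the site, which leaves out the width added by other lists, the difference was −1.43 points. The 57 sites include 10 on chromosome 10, the most of any chromosome. The highest SETD7 score among them, 2381, was on chromosome 10 from 38881573 to 38882188, which scored 987 in shCTL and 189 in vehicle cells and 134, 151 and 127 in LNCaP with GSK2879552, the combination and DMSO. Next came chromosome 2 from 132997272 to 132997757 with a SETD7 score of 1296 and chromosome 9 from 66800561 to 66800993 with 1234. No regions were removed as prone to signal in any library, and each of the 57 sites was by its choice a peak of all 5 FOXA1 lists as well as of the SETD7 list.

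In LNCaP, where every one of these sites was a peak in all 3 lists, they ranked above matched core sites with DMSO and with the combination, and close to them with GSK2879552 alone. Ranks are percentiles of the score within each list, with 100 the strongest, and core sites are weighted to the same shCTL score deciles. The 7851 sites had a mean percentile of 61.9 with GSK2879552, against 61.0 at matched core sites. With the combination the means were 72.3 and 65.0, and with DMSO 70.9 and 63.4. The sites missing after SETD7 knockdown in 22Rv1 thus ranked 7.50 points above core sites with DMSO (6.79 to 8.21) and 7.32 points above them with the combination (6.64 to 8.01), but 0.91 points above them with GSK2879552 (0.12 to 1.69). In vehicle 22Rv1 cells they ranked slightly below matched core sites, at 59.7 against 62.5. Without score matching the order of the classes depended on the list. The sites then ranked 1.20 points above core sites with DMSO and 1.26 points above them with the combination, but −6.03 points relative to core sites with GSK2879552 and −13.4 points in vehicle cells.

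The GSK2879552 percentile minus the DMSO percentile averaged −8.98 points at the 7851 sites and −2.39 points at matched core sites, a difference of −6.60 (−7.12 to −6.07). Percentiles of lists of different length do not by themselves show a change, since the GSK2879552 list is shorter. The difference between the classes was −7.00 points when sites were ranked only among the 23024, where every list has the same number of sites. It was −5.30 points when core sites were matched on DMSO score as well as shCTL score. GSK2879552 ranked below DMSO at 5749 of the 7851 sites, or 73.2% (72.2 to 74.2), against 54.7% of matched core sites and 65.0% of all union sites with both peaks. The share was higher than at matched core sites on all 23 chromosomes and in all 10 shCTL deciles. The mean GSK2879552 minus DMSO percentile was below that of core sites in all 10 deciles, but above that of matched core sites on 1 chromosome. For the combination, the percentile minus that of DMSO averaged 1.48 points at the 7851 sites and 1.66 points at matched core sites, a difference of −0.18 (−0.52 to 0.16). The combination ranked below DMSO at 44.7% of them, against 43.1% of matched core sites and 45.2% of all union sites with both peaks. The difference from matched core sites was 1.62 percentage points (0.10 to 3.13), and the share was higher at the 7851 sites in 9 of 10 deciles and on 17 of 23 chromosomes.

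**Figure D2:**
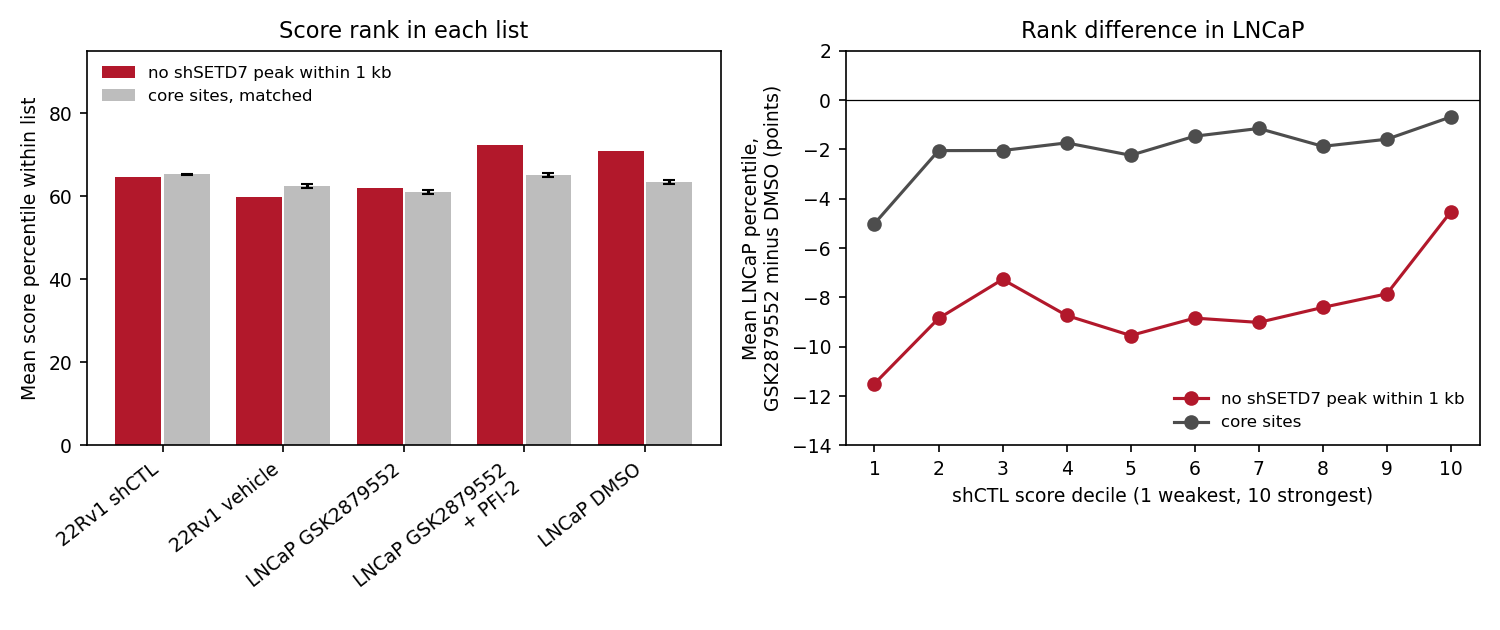
Left, mean score percentile within each list at the 7851 sites without an shSETD7 peak and at core sites weighted to the same shCTL score deciles, with 95% intervals on the latter; the means are 61.9 and 61.0 with GSK2879552 but 70.9 and 63.4 with DMSO. Right, the mean GSK2879552 minus DMSO percentile by shCTL score decile, without error bars; the sites without an shSETD7 peak lie below core sites in all 10 deciles.

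Peak widths differed in the same way. In LNCaP the peak at the 7851 sites had a mean width of 307 bp with GSK2879552, where matched core sites also had 307 bp. With the combination the widths were 423 and 397 bp, and with DMSO 419 and 392 bp. At core sites the GSK2879552 peaks were thus narrower than the DMSO peaks too, but by less.

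All 23024 sites were then ordered by the LNCaP difference, without matching on shCTL score. The share without an shSETD7 peak also ran from 64.1% to 10.9% over the shCTL deciles. How much that adds to the shares below was not tested. In the decile with the most negative GSK2879552 minus DMSO differences, with a median of −34.5 points, 54.3% of the sites had no shSETD7 peak within 1 kb in 22Rv1 (52.2 to 56.3). In the seventh decile, with a median of 0.52 points, 21.5% had none (19.9 to 23.3), and the share stayed between 23.4% and 25.1% in the 3 deciles above it. Ordered by the combination minus DMSO, the share lay between 29.8% and 37.8% in all deciles. The relation also appeared where a GSK2879552 peak was not required. These were the sites of the vehicle, shCTL, combination and DMSO lists, and a GSK2879552 peak was counted only if it overlapped the site. Of 8952 such sites without an shSETD7 peak within 1 kb, 1101 had no GSK2879552 peak, or 12.3% (11.6 to 13.0). Of the 15421 with an shSETD7 peak, 5.77% had none, and 8.61% had none after weighting to the same shCTL score deciles (7.95 to 9.27). With the 1 kb limit used for the other missing shares, the 5.77% was 5.47%.

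**Figure D3:**
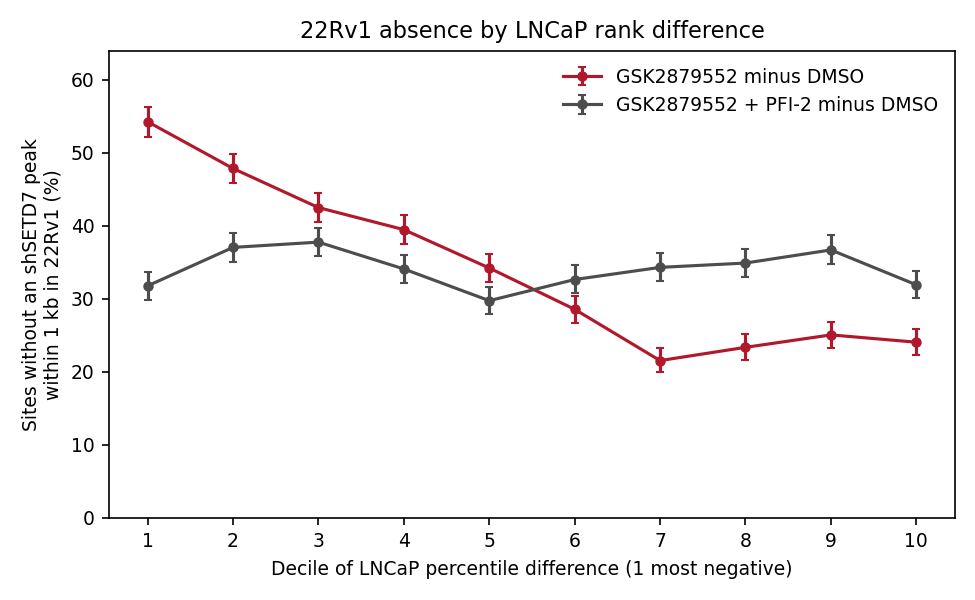
Share of sites without an shSETD7 peak within 1 kb in 22Rv1, in percent with 95% Wilson intervals, by decile of the LNCaP percentile difference of GSK2879552 minus DMSO and of GSK2879552 plus PFI-2 minus DMSO. The first line goes from 54.3% in decile 1 to 24.1% in decile 10, while the second stays between 29.8% and 37.8%. The deciles are not matched on shCTL score.

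The rank difference was larger at these sites than at the sites missing only from the vehicle list, which share the same core sites. At those 2285 sites the GSK2879552 minus DMSO percentile averaged −6.09 points, against −2.69 at matched core sites, a difference of −3.40 (−4.25 to −2.55). Their DMSO percentile was below that of matched core sites, at 55.4 against 59.9, whereas that of the sites missing after SETD7 knockdown was above. A lower GSK2879552 rank relative to DMSO was therefore also found at sites missing from a library without the SETD7 hairpin. At these 2285 sites the combination minus DMSO percentile differed from matched core sites by −1.26 points (−1.90 to −0.61). At the sites missing after SETD7 knockdown that difference was −0.18 points (−0.52 to 0.16). Whether the 2 classes differ could not be tested with 1 library each.

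The share of missing sites varied among chromosomes. It was lowest on chromosome 19, where 55 of 417 sites lacked an shSETD7 peak, or 13.2% (10.3 to 16.8), followed by chromosomes 22 with 16.3%, 16 with 22.0%, 17 with 25.6% and 20 with 26.6%. It was highest on chromosome 13, with 314 of 704 sites or 44.6% (41.0 to 48.3), followed by chromosomes 4 with 41.4%, 21 with 40.0% and X with 39.2%. With the share of each shCTL decile applied to every chromosome, chromosome 19 held 0.396 times and chromosome 13 held 1.30 times the number expected from their scores. The vehicle list had another order. Its missing share was 16.5% on chromosome 19 and 12.7% on chromosome 13, and chromosome 19 was the only one of 23 where the shSETD7 share was below the vehicle share. In LNCaP the mean GSK2879552 minus DMSO percentile over all sites of the 5 lists was −0.365 points on chromosome 19 and −6.77 points on chromosome 13, the extremes of the 23 chromosomes. At the sites without an shSETD7 peak, which are part of all sites, it was −1.01 points on chromosome 19 and −12.6 points on chromosome 13. At core sites it was −0.324 and −1.67 points in that order, and chromosome 3 had the most negative mean, −3.25 points. The mean over all sites thus also varies with the share of missing sites.

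**Figure D4:**
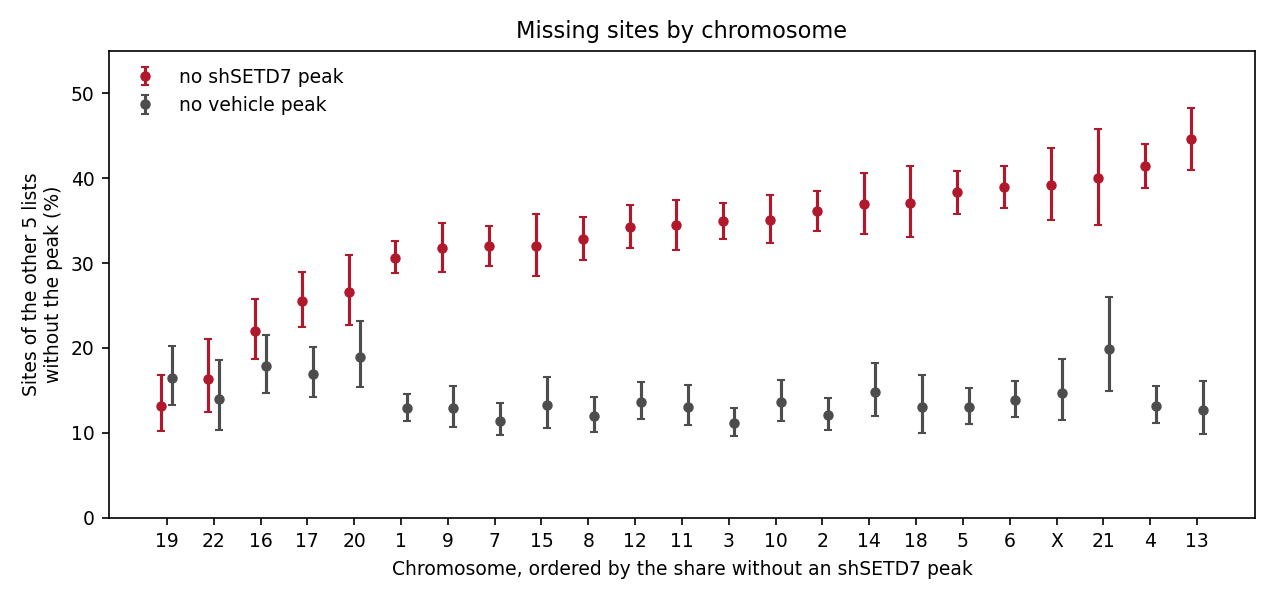
Share of sites of the other 5 lists without an shSETD7 peak and without a vehicle peak within 1 kb, in percent with 95% Wilson intervals, for 23 chromosomes ordered by the first. The first runs from 13.2% on chromosome 19 to 44.6% on chromosome 13, while the second is 16.5% and 12.7% on the same chromosomes.

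Missing sites tended to follow each other along the chromosomes. Of the sites that came next after a site without an shSETD7 peak, 39.9% also had none (38.8 to 41.0), against 31.0% after a core site (30.3 to 31.8). These shares were matched neither on shCTL score nor on chromosome. Neighbours share a chromosome, and the missing share ran from 13.2% to 44.6% among chromosomes. How much of the excess follows from that was not tested. Of the 7851 sites, 4872 stood in unbroken runs of 2 or more and 2979 stood alone. With 34.1% of all 23024 sites missing, many runs would form without any grouping. The number to be expected was not computed, so these 2 counts do not measure grouping. The longest run held 15 sites on chromosome 4 from 116469291 to 118124795, a stretch of 1.66 Mb, with shCTL scores from 108 to 5319. In this stretch there were 8 FOXA1 peaks with shSETD7, 39 with shCTL and 38 with vehicle. LNCaP had 28 with GSK2879552, 36 with the combination and 33 with DMSO. The knockdown list was thus not empty there, and its peaks lay between the shared sites.

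The second longest run held 11 sites on chromosome 13 from 55148754 to 57329816, with 15 shSETD7, 49 shCTL and 42 vehicle peaks. LNCaP had 19 peaks there with GSK2879552, 41 with the combination and 40 with DMSO. A run of 10 sites on the same chromosome, from 69013947 to 70555419, had 14 shSETD7, 47 shCTL and 46 vehicle peaks, and 21, 40 and 40 peaks in LNCaP in the same order. In both stretches of chromosome 13 the shSETD7 and GSK2879552 lists held the fewest FOXA1 peaks. They are also the shortest FOXA1 lists over all chromosomes used, with 63682 and 63866 peaks, against 65093 to 83633 in the others. The other 2 of the 5 longest runs held 10 sites each, on chromosome X from 119872620 to 122228075 and on chromosome 1 from 78966729 to 79829605. On chromosome X there were 10 shSETD7, 34 shCTL and 22 vehicle peaks, and 21, 41 and 39 in LNCaP. On chromosome 1 there were 6, 34 and 23 in 22Rv1, and 26, 40 and 35 in LNCaP. These runs were picked for missing shSETD7 peaks, so their shSETD7 counts are a description of that choice.

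**Figure D5:**
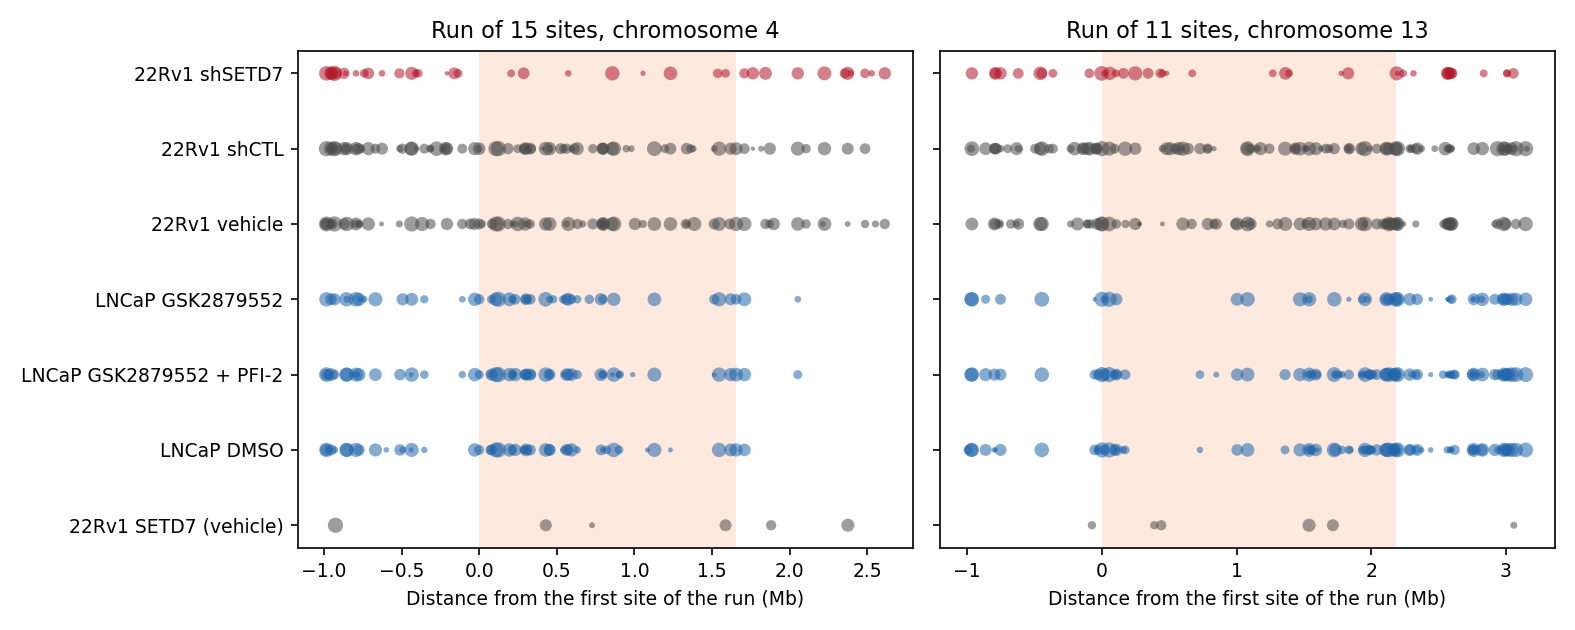
Peaks of the 6 FOXA1 lists and of the SETD7 list, 1 row per list, across the 2 longest runs (shaded) and 1 Mb on either side, by distance in Mb from the first site of the run; larger points are higher score percentiles within the list. The shaded stretch holds 8 shSETD7 and 39 shCTL peaks on chromosome 4, and 15 and 49 on chromosome 13.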

How the data were processed

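Each of the 7 libraries is represented by 1 peak list that the authors deposited, with 1 whole-number score per peak. FastQC 0.11.9, BWA 0.7.17-r1188, SAMtools 1.9, MACS2 2.1.4 and build hg19 were used, per the submitters' processing notes, which give no roles or settings. Of the threshold, an input control, the meaning of the score and the depth per library, the sources used here say nothing. Scores served only as ranks within a list, and the lists did not start at 1 lowest score (13 in each 22Rv1 list, 40 to 48 in LNCaP).

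Groups came from the sample titles. Peaks on chromosome Y were left out, and peaks were joined when they shared 1 bp. A site took the highest score of its peaks in each list. Core sites were weighted to the members' distribution over 10 shCTL score groups. Shares have Wilson intervals, and weighted differences have normal intervals over sites within score groups. The counts of 23024 and 7851 sites were the same with bedtools 2.31.1, and the code was tested on simulated lists. The scripts ran on Python 3.11.15 with pandas 2.3.3, numpy 2.4.6, matplotlib 3.10.9 and scipy 1.17.1.

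The sites and comparisons were chosen with earlier results of these data known. Named sites were the 10 with the highest shCTL scores, the 5 highest in DMSO, the 5 longest runs, the 5 with the highest SETD7 scores at them, the extreme chromosomes and those nearest the 1 kb limit; some are summarised only. Gene starts, forkhead motifs and neighbouring genes had been planned but were not analysed here, since no hg19 sequence or annotation was used.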

Additional observations from a re-analysis of the deposited data

How the results depend on the processing

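Of 82 alternative values over 7 results, 57 stayed within the interval of the reported value, 25 moved out of it and 0 changed sign. The shares missing cannot change sign. With no shSETD7 peak overlapping the site, within 5 kb, in the higher-scoring 50% of each list, with lists shortened to the shortest, with peaks covering 50% of the site and without chromosomes 1, 3, 7, 8 and 12, the share without an shSETD7 peak (34.1%) was 36.9%, 27.3%, 37.1%, 33.1%, 35.2% and 34.8%. The share without a vehicle peak (13.5%) was 14.4%, 11.1%, 11.3%, 11.7% and 14.2% in that order without the higher-scoring 50%. The SETD7 difference (−1.71 points) was −1.16 with 50% cover and −0.86 without the 5 chromosomes. The vehicle percentile difference (−2.84) was −1.95 in the higher-scoring 50% and −13.4 without score matching. The DMSO percentile difference (7.50) was 5.74 in the higher-scoring 50%, 6.58 with shortened lists, 4.73 with 50% cover and 1.20 without score matching. The GSK2879552 minus DMSO difference (−6.60) was −8.16, −7.45 and −7.23 in the higher-scoring 50%, with shortened lists and without matching, and −5.30 with DMSO score matched too. The excess of missing sites next to each other (8.85 points) was 11.2 within 5 kb and 10.2 in the higher-scoring 50%. A wider limit can only lower a missing share. For the other changes the cause was not tested. Matching on LNCaP scores, ranking among the 23024 sites and leaving out sites at SETD7 peaks were chosen after seeing the data. Alternatives for gene starts and motifs were not run. Unknown depth limits every missing share, and each condition has 1 library.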
